A study of Mus musculus with 8 samples.

Results

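The genes described here are the collagen genes, taken as every gene of the count table whose identifier maps to a symbol made of Col, a number, the letter a and a number. This gave 44 of 27179 genes. They were followed in RNA-seq of cultured mouse mammary tumour cells of 4 related lines, named 67NR, 66cl4, 4T1 and 4T1.2, each with 2 biological replicates, which makes 8 libraries. The study kept the lines in alpha-MEM with foetal calf serum, the labels give no treatment or introduced allele for any of them, and RNA came from the lines themselves and not from tumours in mice. The study describes 66cl4 and 67NR as lines of lower metastatic potential than 4T1 and 4T1.2 (the sample labels spell 66cl4 with a digit 1 in place of the l). Each line is a single line, so what belongs to metastatic potential and what belongs to the individual line cannot be told apart.

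Collagens are proteins of 3 chains wound into a triple helix. Fibrillar collagens build the cables of connective tissue, and other collagens coat those fibrils, form the sheet of the basement membrane, assemble beaded microfilaments, or span the cell membrane. Several types need chains from different genes, so the balance between chain genes bears on which molecule a cell could make. In mammary tissue the basement membrane separates epithelium from stroma, where fibroblasts are known as the main source of fibrillar collagens. The 44 genes comprised 11 fibrillar, 6 basement membrane, 6 beaded filament, 9 fibril-associated, 2 multiplexin, 3 network-forming and 4 transmembrane collagens, and a last group of 3 with the anchoring fibril collagen Col7a1.

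Library totals ran from 37159840 to 66269681 counts, of which 0.16% to 0.239% fell on collagen genes. Levels are given as counts or as RPKM, that is counts scaled for gene length and, by TMM, for library size, which makes genes of different length comparable. Of the 44 genes, 35 had enough counts to be tested. The other 9 were Col6a3, Col6a6, Col9a1, Col9a2, Col11a1, Col13a1, Col19a1, Col25a1 and Col26a1, and none of them exceeded 9 counts in any library. Differences are log2 fold changes with standard errors (SE) from edgeR's quasi-likelihood test, and a gene is called where its Benjamini-Hochberg adjusted p over all 13927 genes tested was under 0.05. These p-values set a difference between lines against the spread between replicates of a line, which was estimated jointly for all lines.

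The labels were compared with marker genes. All 7 tested epithelial genes of a list of 8 were higher in 4T1 and 4T1.2, where the summed level of the list was 1130 to 2120 RPKM, than in 66cl4 and 67NR, where it was 257 to 418 RPKM. The untested Krt5 went the other way, with 5 counts in all in 4T1.2 and 4T1 against 19 in 66cl4 and 67NR. Between these pairs of lines 76.8% of all tested genes were called, 38.1% higher and 38.6% lower in 4T1 and 4T1.2. Krt8 was abundant in all 8 libraries, at 256 to 887 RPKM, whereas Epcam had 0 or 1 count in each 66cl4 and 67NR library. Of 10 mesenchymal or fibroblast genes, 8 were tested, of which 2 were higher and 4 lower in 4T1 and 4T1.2. Vim was high in every library (1031 to 3763 RPKM), which set the summed level of that list to 2600 to 3780 RPKM in 4T1 and 4T1.2 and 1110 to 2050 RPKM in the other lines. Pdgfrb was at 30 to 66 RPKM in 66cl4 and 67NR and at 0.225 to 0.629 RPKM in 4T1.2 and 4T1, Zeb1 was at 10.3 to 11.2 RPKM against 0.0455 to 0.0789 RPKM, and Cdh2 had 2975 to 5099 counts per library against 0 or 1, so these genes were high in the same lines as Col6a1, Col6a2 and Col12a1 below. Acta2 was also called lower in 4T1 and 4T1.2, Pdgfra was at 12.5 to 25 RPKM in all libraries and was called higher there with Vim, and Thy1 had at most 2 counts in any library. Of 8 leucocyte genes 3 were tested, 2 higher and 1 lower in 4T1 and 4T1.2, and the list summed to 3.88 to 5.2 RPKM there against 18.3 to 24.2 RPKM in 66cl4 and 67NR, where Lyz2 made up nearly all of it, with Ptprc at no more than 2 counts and Cd3e and Adgre1 at 0. Of 6 endothelial genes 3 were tested, all higher in 4T1 and 4T1.2, with a summed level of 0.403 to 2.5 RPKM against 0.0966 to 0.199 RPKM. Kdr, Tek and Emcn had at most 8 counts in any library, whereas Tie1 had 370 and 336 counts and Cdh5 204 and 90 counts in 4T1, with 31 and 50 and 42 and 33 in 4T1.2. Marker genes thus differed between the same pairs of lines as the collagens below, in both directions within the mesenchymal and leucocyte lists. The part of these markers in the collagen differences was not tested.

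Collagen expression was dominated by a few genes, and the genes in the lead differed between lines. Summed over all 44 genes, 66cl4 had the highest level with 424 ± 42.5 RPKM, against 333 ± 36.5 for 4T1.2, 308 ± 11.5 for 4T1 and 304 ± 0.382 for 67NR (SD, n = 2). Col4a1, a basement membrane chain, was the leading collagen gene in 4T1.2, 4T1 and 67NR, with 31.5%, 32% and 23.9% of the summed level. In 66cl4 the leading gene was Col6a1, a beaded filament chain, with 25.4%. The basement membrane class had the highest sum of all classes in every line, and in 66cl4 the beaded filament class came close to it, at 146 ± 19.9 RPKM against 158 ± 16.2 RPKM.

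**Figure D1:**
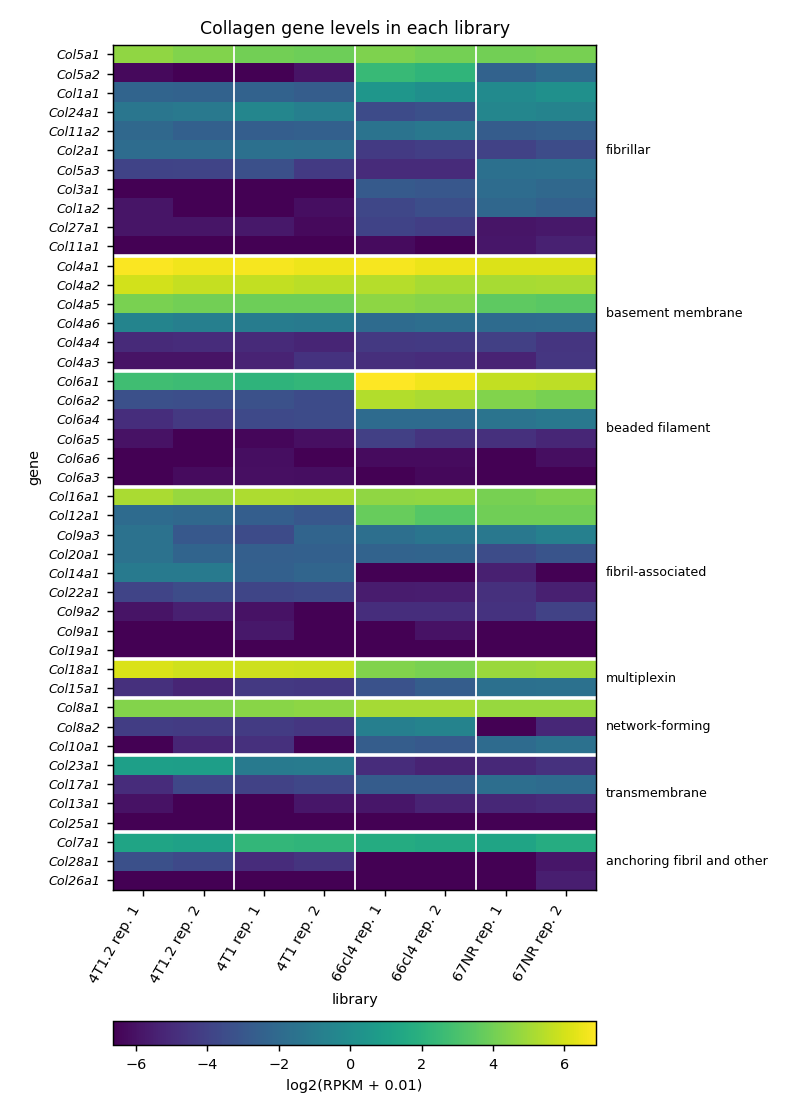
Heat map of log2(RPKM + 0.01) for the 44 collagen genes (rows, grouped by class and ordered by mean level within it) in the 8 libraries (columns). The bright rows shared by all lines are Col5a1, Col4a1, Col4a2, Col4a5, Col16a1, Col18a1 and Col8a1, whereas Col6a2 and Col12a1 are bright in 66cl4 and 67NR and dark in 4T1.2 and 4T1.

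The main comparison, called pooled below, took the average of the lines 4T1.2 and 4T1 minus that of 67NR and 66cl4. Among the 35 tested collagens, 30 were called, 12 of them higher and 18 lower in 4T1 and 4T1.2. These lines differ widely, since 76.8% of all tested genes were called in this comparison (38.1% higher and 38.6% lower), so a call by itself does not set the collagens apart. The median log2 fold change of the collagens was -0.47, both as fitted and with 6 genes at the limit of detection set to their bound, against -0.01 for all genes. When a log2 fold change above 1 in size was required, 18 collagens were called, against 26% of all genes. A test for any difference among the 4 lines called 34 of the 35 collagens (84.8% of all genes), and the exception was Col4a4 at an adjusted p of 0.063.

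**Figure D2:**
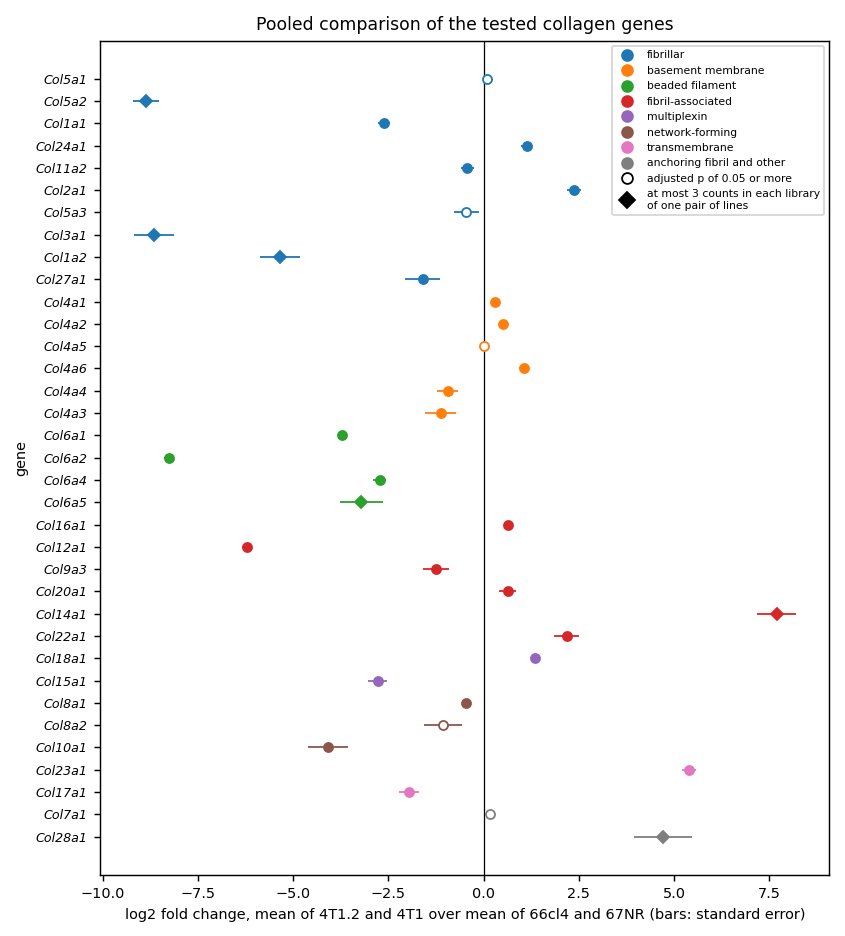
Log2 fold change (x axis, bars show SE) of the 35 tested collagen genes in the pooled comparison, coloured by class, with open symbols for an adjusted p of 0.05 or more. Diamonds mark genes with at most 3 counts in each library of one pair of lines, whose fitted value depends on the prior count; all beaded filament genes lie left of 0, and Col14a1 and Col23a1 lie farthest right.

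In the beaded filament class all 4 tested genes of 6 were called lower in 4T1 and 4T1.2 in the pooled comparison (38.6% of all genes). Collagen VI forms beaded microfilaments around cells from 1 chain of Col6a1, 1 of Col6a2 and 1 of Col6a3 or a related chain. Col6a1 (chromosome 10, 76708792 to 76726044, GRCm38) was at 6.73 and 6.32 RPKM in replicates 1 and 2 of 4T1.2, at 4.4 and 5.01 in 4T1, at 119 and 95.9 in 66cl4, and at 50.8 and 47.1 in 67NR. Its libraries did not overlap between the pairs of lines, and it was 13.1-fold lower in 4T1 and 4T1.2 (log2 fold change -3.71, SE 0.09, adjusted p 2.37e-10). Col6a2 (chromosome 10, 76595756 to 76623630) had 19 and 18 counts in 4T1.2 and 21 and 13 in 4T1, against 2731 and 3963 in 67NR and 6852 and 5994 in 66cl4. It was 307-fold lower (log2 fold change -8.26, SE 0.12, adjusted p 1.49e-11), and, like Col6a1, it was higher in 66cl4 than in 67NR, by 1.04 (SE 0.11, adjusted p 4.58e-05) on the log2 scale against 1.14 (SE 0.12, adjusted p 5.08e-05) for Col6a1.

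The ratio of the RPKM of Col6a1 to that of Col6a2 was 2.55 to 2.94 in the 4 libraries of 66cl4 and 67NR and 47.8 to 75.1 in those of 4T1.2 and 4T1. The third classical chain, Col6a3, had 0 to 3 counts in every library and was not tested. Its relatives were also scarce. Col6a4 had 10 and 16 counts in 4T1.2 and 32 and 26 in 4T1, against 100 and 193 in 67NR and 85 and 84 in 66cl4, and it was lower in the pooled comparison by 2.73 on the log2 scale (SE 0.18, adjusted p 3.23e-07). Col6a5 had 3 and 0 counts in 4T1.2 and 1 and 2 in 4T1, against 9 and 10 in 67NR and 21 and 13 in 66cl4, a ratio of 10.4 between the pairs of lines (95% counting interval 4.45 to 29.5). Col6a6, which shares 2.97% of its 75-base stretches with Col6a5, had at most 2 counts in any library. Col6a4 shares 1.9% of its exon bases with an antisense gene, and since the library kit does not keep the strand, reads of such a pair cannot be told apart.

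**Figure D3:**
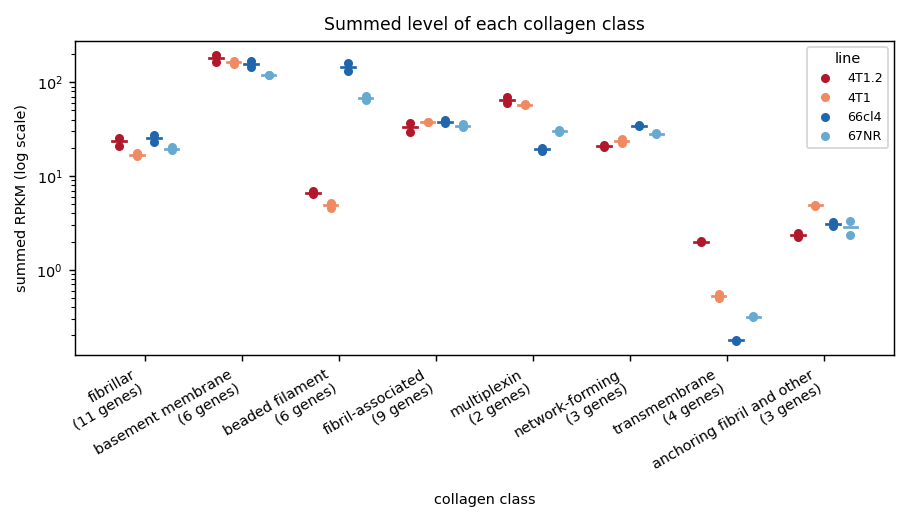
Summed RPKM (log axis) of each collagen class in each library, with points for the 2 replicates and a bar for the mean of each line. The beaded filament sums of 66cl4 (146 RPKM on average) and 67NR (68 RPKM) sit far above those of 4T1.2 (6.65 RPKM) and 4T1 (4.87 RPKM), while the fibrillar and fibril-associated sums of the 4 lines lie close together.

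Promoter sequence is shown for 4 genes that moved in the pooled comparison, the neighbouring and jointly low Col6a1 and Col6a2, Col3a1, which had no count in 4T1 and 4T1.2, and, in the other direction, Col18a1. Each is the stretch of up to 250 bases before the RefSeq start (GRCm38.p6), cut before the first base annotated as exon and written 5′ to 3′ along the gene. Capitals mark matches on either strand to the CCAAT box, the core of the GC box (GGGCGG), the TATA box (read as TATAAA) and the AP-1 site (TGANTCA).
Col6a1, chr10:76726169-76726294, reverse strand: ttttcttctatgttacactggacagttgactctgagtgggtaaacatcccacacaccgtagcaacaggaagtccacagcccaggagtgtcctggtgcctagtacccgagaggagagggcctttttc
Col6a2, chr10:76623631-76623880, reverse strand: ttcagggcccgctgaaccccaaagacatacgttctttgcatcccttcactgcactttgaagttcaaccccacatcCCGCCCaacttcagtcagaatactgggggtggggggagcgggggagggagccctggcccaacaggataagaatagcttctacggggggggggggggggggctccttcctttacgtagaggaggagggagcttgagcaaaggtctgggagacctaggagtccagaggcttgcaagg
Col3a1, chr1:45311288-45311537, forward strand: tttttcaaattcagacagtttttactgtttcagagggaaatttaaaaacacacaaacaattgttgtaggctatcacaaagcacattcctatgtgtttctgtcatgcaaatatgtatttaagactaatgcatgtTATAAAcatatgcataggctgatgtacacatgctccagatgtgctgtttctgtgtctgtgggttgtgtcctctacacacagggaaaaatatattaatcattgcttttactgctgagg
Col18a1, chr10:77166549-77166780, reverse strand: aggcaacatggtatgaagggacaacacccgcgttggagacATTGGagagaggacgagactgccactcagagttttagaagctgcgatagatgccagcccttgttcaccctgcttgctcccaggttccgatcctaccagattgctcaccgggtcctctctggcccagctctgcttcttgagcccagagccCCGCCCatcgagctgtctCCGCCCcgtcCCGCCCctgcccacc
The Col6a1 stretch, cut to the 126 bases that end 124 bases before the start, held none of the 4 motifs. The uncut 250 bases of Col6a1 held 1 TGANTCA, the 1 collagen window with that match. The Col6a2 stretch held 1 GGGCGG (as CCGCCC), the Col3a1 stretch held 1 TATAAA, and the Col18a1 stretch held 3 GGGCGG and 1 CCAAT (as ATTGG). No window of the 250 bases before the start was available for Col1a1, Col2a1, Col4a3, Col5a2, Col9a3, Col12a1, Col14a1, Col22a1 and Col26a1. Windows not cut at exons were available for the other 35 of the 44 collagens, a different set from the 35 tested genes. GGGCGG occurred in 60% of those against 33% of the windows of all 27025 genes, CCAAT in 34.3% against 34.5%, TATAAA in 14.3% against 13%, TGANTCA in 2.86% against 6.85%, and CACCTG, an E-box, in 11.4% against 17.1%. A match is a description of the letters and not of a bound factor.

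Among the fibrillar collagens, 8 of 10 tested genes were called in the pooled comparison, against 76.8% of all genes. Of these 8, 2 were higher and 6 lower in 4T1 and 4T1.2 (38.1% and 38.6% of all genes). Levels were low for all but one. Col5a1, whose chain nucleates fibrils and limits their width, was at 24.6 and 19.8 RPKM in 4T1.2 and 16 and 14.9 in 4T1, against 16 and 17.2 in 67NR and 19.5 and 16.6 in 66cl4. It supplied 71.6% to 95.2% of the summed fibrillar level of each line. The pairs of lines overlapped, with a pooled log2 fold change of 0.10 (SE 0.09, adjusted p 0.303).

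The chain that pairs with it behaved otherwise. Col5a2 (chromosome 1, 45374331 to 45503282) had 1 and 0 counts in 4T1.2 and 0 and 2 in 4T1, against 44 and 104 in 67NR and 1674 and 1397 in 66cl4. It was in effect a 66cl4 gene, with 5.15 ± 0.619 RPKM there against 0.218 ± 0.0518 RPKM in 67NR (SD, n = 2), a log2 difference of 4.53 (SE 0.23, adjusted p 6.36e-07). Between the pairs of lines the ratio was 1260 (95% counting interval 430 to 6100), so Col5a1 had a partner chain at an RPKM ratio of 3.49 and 3.52 in the 66cl4 libraries, and of 88.5 and 67.4 in those of 67NR. The alternative partner Col5a3 ran the other way. It had 19 and 20 counts in 4T1.2 and 33 and 11 in 4T1, against 69 and 122 in 67NR and 6 and 6 in 66cl4, and was lower in 66cl4 than in 67NR by 3.84 on the log2 scale (SE 0.39, adjusted p 4.56e-05). Its pooled difference of -0.45 (SE 0.32, adjusted p 0.217) averaged lines on either side, and without replicate 1 of 4T1 it became -0.83 at an adjusted p of 0.0301.

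The collagens most typical of fibroblasts, Col1a1, Col1a2 and Col3a1, were low in every line and lowest in 4T1.2 and 4T1. Col1a1 had 53 and 49 counts in 4T1.2 and 52 and 33 in 4T1, against 151 and 321 in 67NR and 295 and 222 in 66cl4, which is 0.989 ± 0.162 RPKM in 67NR and 0.166 ± 0.021 RPKM in 4T1 (SD, n = 2). It was 6.15-fold lower in the pooled comparison (log2 fold change -2.62, SE 0.16, adjusted p 1.79e-07). Col1a2, the other chain of collagen I, had 2 and 0 counts in 4T1.2 and 0 and 1 in 4T1, against 41 and 55 in 67NR and 15 and 20 in 66cl4. The ratio between the pairs of lines was 51.2 (95% counting interval 17.1 to 251). The RPKM of Col1a1 exceeded that of Col1a2 by 21.5 and 12.1 times in 66cl4 and by 4.02 and 6.37 times in 67NR, whereas collagen I is built from 2 chains of the first and 1 of the second. Col3a1 (chromosome 1, 45311538 to 45349706) had no count in any 4T1.2 or 4T1 library, 33 and 30 in 66cl4, and 54 and 79 in 67NR. Against a floor of 3 counts per library it was at least 19.1-fold lower in 4T1 and 4T1.2, and it was lower in 66cl4 than in 67NR by 0.96 on the log2 scale (SE 0.26, adjusted p 0.0199), as was Col1a2 by 1.35 (SE 0.38, adjusted p 0.0164).

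**Figure D4:**
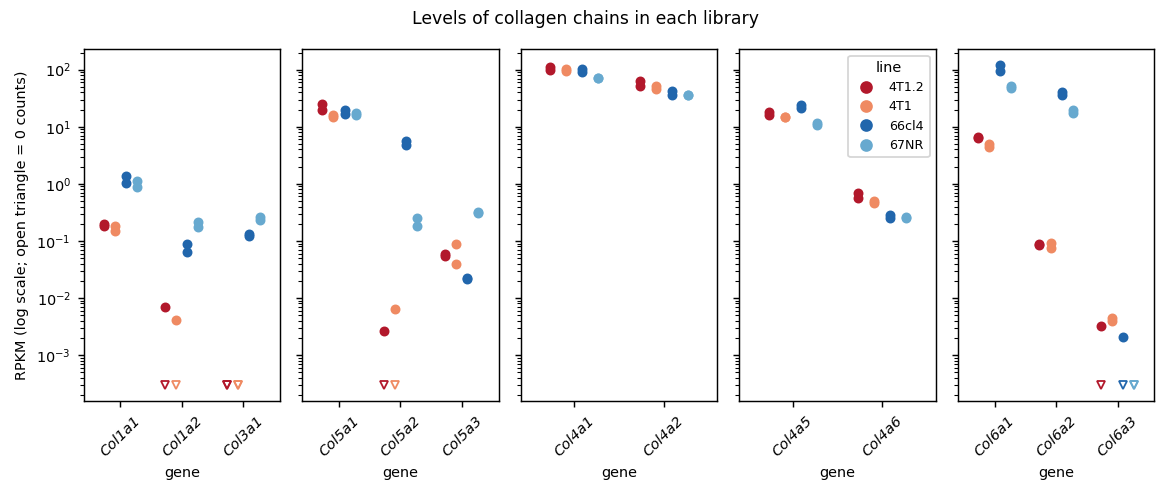
RPKM (log axis) of chain genes of collagens I, III, V, IV and VI in each library, coloured by line, with open triangles for libraries with 0 counts. Col5a1, Col4a1, Col4a2 and Col4a5 lie at similar levels in all lines, whereas Col5a2 spans from 0 counts to 5.58 RPKM and Col6a2 from 0.0751 to 40.5 RPKM.

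The remaining fibrillar genes were also detected at low levels. Col2a1, the main collagen of cartilage, had 71 to 98 counts per library in 4T1.2 and 4T1 and 9 to 25 in the other lines, a 5.2-fold higher level in the pooled comparison (log2 fold change 2.38, SE 0.19, adjusted p 1.85e-06). Col24a1 had 155 and 175 counts in 4T1.2 and 321 and 185 in 4T1, against 191 and 285 in 67NR and 24 and 28 in 66cl4. Its pooled log2 fold change of 1.13 (SE 0.15, adjusted p 6.77e-05) rested on 66cl4. Against 67NR, 4T1.2 was lower by 0.75 on the log2 scale (SE 0.18, adjusted p 0.00461), 4T1 did not pass the threshold (-0.08, SE 0.18, adjusted p 0.718), and 66cl4 was lower by 3.08 (SE 0.23, adjusted p 6.79e-06). Col24a1 lies on chromosome 3. The other genes there had median log2 differences against 67NR of -0.62 in 4T1.2, -0.55 in 4T1 and -0.59 in 66cl4. Their part was not tested. Col27a1 had 3 and 3 counts in 4T1.2 and 4 and 1 in 4T1, against 2 and 4 in 67NR and 19 and 16 in 66cl4, so it too stood apart in 66cl4, here upwards. Its pooled call (log2 fold change -1.60, SE 0.47, adjusted p 0.0108) was lost without replicate 2 of 67NR, at an adjusted p of 0.0778. Col11a2, with 29 to 105 counts, was likewise highest in 66cl4, and its pooled difference of -0.43 (SE 0.17) had an adjusted p of 0.044, which rose to between 0.0613 and 0.156 without replicate 2 of 4T1.2, without either replicate of 4T1, without replicate 2 of 66cl4 or without either replicate of 67NR. Col11a1 was not seen in 4T1.2 or 4T1 and had up to 6 counts in 67NR.

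The basement membrane collagens differed by small amounts. Of 6 tested genes, 5 were called in the pooled comparison, against 76.8% of all genes. Of these 5, 3 were higher (38.1% of all genes) and 2 lower (38.6%), with log2 fold changes between -1.12 and 1.05. Col4a1, which with Col4a2 makes the common collagen IV network, was at 113 and 97.4 RPKM in 4T1.2 and 103 and 94 in 4T1, against 72.7 and 72.6 in 67NR and 103 and 89.4 in 66cl4. Its pooled difference of 0.29 on the log2 scale (SE 0.08, adjusted p 0.00694) came with overlapping libraries, and 4T1 and 66cl4 differed by 0.04 (SE 0.11, adjusted p 0.762). Col4a2 was at 63.5 and 51.5 RPKM in 4T1.2 and 51.2 and 45.8 in 4T1, against 35.4 and 36.7 in 67NR and 42.3 and 35.3 in 66cl4, a pooled log2 fold change of 0.50 (SE 0.09, adjusted p 0.000542) without overlap. The RPKM ratio of Col4a1 to Col4a2 stayed between 1.78 and 2.53 in all 8 libraries. These genes lie head to head on chromosome 8, with starts 21 bases apart (11312826 on the reverse and 11312805 on the forward strand, GRCm38.p6), and their exons share 22 bases. The other genes of chromosome 8 had a median pooled log2 fold change of -0.28, in the opposite direction to both.

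A second head-to-head pair, Col4a5 and Col4a6, starts 1343 bases apart on chromosome X. Col4a5 was at 18.2 and 16.2 RPKM in 4T1.2 and 15 and 14.8 in 4T1, against 11.7 and 10.8 in 67NR and 24 and 21.3 in 66cl4. The highest and the lowest line thus fell in the same pair, 66cl4 and 67NR differed by 1.01 on the log2 scale (SE 0.10, adjusted p 3.49e-05), and the pooled difference was within 0.04 of 0 in every setting tried. Col4a6 was far below its neighbour, with 145 to 257 counts in 4T1.2 and 4T1 and 62 to 109 in the other lines, and was higher in 4T1 and 4T1.2 by 1.05 on the log2 scale (SE 0.13, adjusted p 3.32e-05). The RPKM ratio of Col4a5 to Col4a6 was 26.7 to 31.5 in 4T1.2 and 4T1, 40.8 and 46.1 in 67NR, and 74.9 and 93.9 in 66cl4. The median of the other genes of chromosome X was -0.45 in the pooled comparison. Col4a3 and Col4a4, whose chains join that of Col4a5 in kidney and lung, were near the limit of detection with 3 to 18 counts per library. Both were called lower (log2 fold changes of -1.12, SE 0.41, and -0.94, SE 0.28, adjusted p 0.03 and 0.0126). The call of Col4a3 was lost when any one library was left out other than replicate 2 of 4T1 or replicate 1 of 67NR, at adjusted p-values up to 0.198, and 5.65% of its exon bases overlap a transcript on the opposite strand.

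The fibril-associated collagens, which sit on the surface of fibrils, had all 6 tested members called in the pooled comparison, against 76.8% of all genes. Of these members 4 were higher and 2 lower in 4T1 and 4T1.2 (38.1% and 38.6% of all genes). Their summed level was alike in the lines, from 33.1 ± 5.5 RPKM in 4T1.2 to 38.1 ± 1.72 RPKM in 66cl4 (SD, n = 2), but the genes behind it were not. Col16a1 was at 35.6 and 28.2 RPKM in 4T1.2 and 36.9 and 36.6 in 4T1, against 17.5 and 19.3 in 67NR and 25.5 and 26.4 in 66cl4, and gave 96.2% and 98.1% of the class in 4T1.2 and 4T1. It was higher in these lines by 0.65 on the log2 scale (SE 0.08, adjusted p 4.32e-05). Col12a1 (chromosome 9, 79598987 to 79721141), which links fibrils to their surroundings and is common in dense connective tissue, had 169 and 148 counts in 4T1.2 and 112 and 63 in 4T1, against 6596 and 11088 in 67NR and 7042 and 5187 in 66cl4. It was 73.4-fold lower in 4T1 and 4T1.2 (log2 fold change -6.20, SE 0.13, adjusted p 1e-10), with no overlap between the pairs of lines.

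Col14a1, a close relative of Col12a1, showed the opposite pattern at a far lower level. It had 166 and 164 counts in 4T1.2 and 67 and 61 in 4T1, against 3 and 0 in 67NR and 0 and 0 in 66cl4, a ratio of 130 between the pairs of lines (95% counting interval 44.3 to 634). Against 66cl4, with a floor of 3 counts per library, 4T1.2 had at least a 43.7-fold and 4T1 at least a 17.9-fold higher level. Col22a1, known from tissue junctions, followed the same direction with 19 to 27 counts per library against 3 to 6, a log2 fold change of 2.18 (SE 0.33, adjusted p 0.000179). Col20a1 (12 to 79 counts) was higher by 0.63 (SE 0.23, adjusted p 0.03), a call lost without replicate 1 of 4T1.2, replicate 2 of 4T1, either replicate of 66cl4 or replicate 1 of 67NR, at adjusted p-values of 0.0551 to 0.114. Col9a3 had 53 and 20 counts in 4T1.2 and 13 and 26 in 4T1, against 43 and 102 in 67NR and 38 and 47 in 66cl4. Its replicates were uneven and the pairs of lines overlapped, at a pooled log2 fold change of -1.25 (SE 0.34, adjusted p 0.00733), and 6.07% of its exon bases overlap Tcfl5 on the opposite strand. Its partner chains Col9a1 and Col9a2 had at most 2 and 9 counts, and Col19a1 had none in any library.

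The 2 multiplexins, which carry the C-terminal domains from which endostatin-type fragments are released, moved in opposite directions. Col18a1 (chromosome 10, 77052178 to 77166530) was at 68.9 and 60.5 RPKM in 4T1.2 and 58.7 and 56.5 in 4T1, against 29.1 and 31 in 67NR and 20 and 18.3 in 66cl4. It was 2.54-fold higher in 4T1 and 4T1.2 (log2 fold change 1.35, SE 0.07, adjusted p 4.88e-08), the largest pooled increase among the collagens above 5 RPKM on average. The order of the lines held beyond the spread for 67NR over 66cl4 (log2 difference of 66cl4 against 67NR -0.65, SE 0.10, adjusted p 0.000477) but not for 4T1.2 over 4T1 (0.17, SE 0.10, adjusted p 0.269). Col15a1 had 8 and 5 counts in 4T1.2 and 12 and 9 in 4T1, against 60 and 107 in 67NR and 23 and 35 in 66cl4, and was lower in the pooled comparison by 2.78 on the log2 scale (SE 0.25, adjusted p 3.93e-06).

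Of the 3 network-forming collagens, 2 were called lower in the pooled comparison (38.6% of all genes). Col8a1, a short-chain collagen of vessel walls and of the membrane behind the cornea, was at 21.1 and 20.5 RPKM in 4T1.2 and 22.4 and 24.5 in 4T1, against 28.4 and 27.7 in 67NR and 33.9 and 33.1 in 66cl4. The replicates were close, so a difference as small as -0.47 on the log2 scale (SE 0.06) had an adjusted p of 4.15e-05. The other genes of chromosome 16, where Col8a1 lies, had a median pooled log2 fold change of -0.31, in the same direction, whose part was not tested. The second chain, Col8a2, had 11 and 10 counts in 4T1.2 and 11 and 7 in 4T1, against 0 and 5 in 67NR and 110 and 127 in 66cl4. It was thus highest in 66cl4 and lowest in 67NR, 5.64 apart on the log2 scale (SE 0.45, adjusted p 1.09e-05), a value that rests on the 5 counts of 67NR replicate 2. The pooled value of -1.06 (SE 0.49, adjusted p 0.0708) became 1.13 (adjusted p 0.406) without replicate 2 of 67NR and -1.39 (adjusted p 0.0111) without replicate 1. Col10a1, the collagen of hypertrophic cartilage, had 0 and 3 counts in 4T1.2 and 5 and 0 in 4T1, against 29 and 63 in 67NR and 21 and 18 in 66cl4. Its pooled log2 fold change was -4.08 (SE 0.52, adjusted p 5.35e-05), and -5.85 and -6.22 without the only 4T1.2 and 4T1 libraries that held any count.

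Among the transmembrane collagens, Col23a1 had the largest called difference between 4T1.2 and 4T1 of all collagens tested. It had 633 and 626 counts in 4T1.2 and 156 and 126 in 4T1, against 4 and 10 in 67NR and 6 and 4 in 66cl4. In the pooled comparison it was 42.3-fold higher in 4T1 and 4T1.2 (log2 fold change 5.40, SE 0.18, adjusted p 1.57e-09), and the pairs of lines did not overlap. Its level was still modest, at 1.96 ± 0.0129 RPKM in 4T1.2 (SD, n = 2). Col17a1, a component of the hemidesmosomes that hold epithelial cells to the basement membrane, had 7 and 20 counts in 4T1.2 and 18 and 16 in 4T1, against 57 and 87 in 67NR and 36 and 35 in 66cl4. It was lower in the pooled comparison by 1.96 on the log2 scale (SE 0.26, adjusted p 7.22e-05), opposite to the 7 tested epithelial markers. Col13a1 had 1 and 0 counts in 4T1.2 and 0 and 1 in 4T1, against 2 and 4 in 67NR and 1 and 2 in 66cl4, and Col25a1 had none.

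In the last group, Col7a1, which forms the fibrils that anchor the epithelial basement membrane, had its highest level in 4T1. It was at 2.4 and 2.16 RPKM in 4T1.2 and 4.93 and 4.7 in 4T1, against 2.36 and 3.33 in 67NR and 3.2 and 2.92 in 66cl4, with a pooled log2 fold change of 0.17 (SE 0.11, adjusted p 0.179) that reached 0.30 and an adjusted p of 0.0144 without replicate 2 of 67NR. Col28a1, a von Willebrand A domain collagen, had 21 and 17 counts in 4T1.2 and 6 and 6 in 4T1, against 0 and 2 in 67NR and 0 and 0 in 66cl4, a ratio of 21.3 between the pairs of lines (95% counting interval 5.6 to 181). Col26a1 had 0 counts in all libraries but replicate 2 of 67NR, where it had 2. Counting intervals and floors here and above cover counting error only.

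The closest comparison was 4T1.2 against 4T1, from which 4T1.2 was derived. Of 35 tested collagens, 8 were called, 5 higher and 3 lower in 4T1.2, against 19.3% of all genes (9.37% higher and 9.92% lower). Higher in 4T1.2 were Col23a1 (log2 fold change 2.07, SE 0.15, adjusted p 2.91e-05), Col14a1 (1.28, SE 0.29, adjusted p 0.0155), Col12a1 (0.79, SE 0.20, adjusted p 0.0236), Col5a1 (0.52, SE 0.12, adjusted p 0.0149) and Col6a1 (0.47, SE 0.12, adjusted p 0.0233). Lower were Col6a4 (-1.23, SE 0.32, adjusted p 0.0231), Col7a1 (-1.08, SE 0.15, adjusted p 0.00105) and Col24a1 (-0.67, SE 0.18, adjusted p 0.0283). The 6 basement membrane genes had adjusted p-values of 0.0866 to 0.858, at log2 fold changes from -1.78 (Col4a3) to 0.33 (Col4a6). The count depended on single libraries, with 2 collagens called without replicate 1 of 4T1.2, namely Col23a1 and Col7a1, and 4 without its replicate 2. With a log2 fold change above 1 in size required, Col23a1 was the 1 collagen called, against 2.18% of all genes.

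The 2 lines of low metastatic potential differed more from each other. Between 66cl4 and 67NR, 20 collagens were called, 11 higher and 9 lower in 66cl4, against 44.6% of all genes (22.2% higher and 22.4% lower). The 4 largest log2 differences among the genes called were those of Col8a2 (5.64) and Col5a2 (4.53), higher in 66cl4, and of Col5a3 (-3.84) and Col24a1 (-3.08), lower there, all described above with their errors. Among the more abundant genes, Col6a1, Col6a2 and Col4a5 were higher in 66cl4 by 1.01 to 1.14 on the log2 scale, and Col18a1 was lower by 0.65. With a log2 fold change above 1 in size required, 5 collagens were called, against 7.58% of all genes. The count at the usual threshold fell to 11 without replicate 1 of 67NR and to 13 without replicate 1 of 66cl4.

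In the 4 comparisons across the pairs of lines, 28 to 31 of the 35 collagens were called. They were 31 for 4T1.2 against 67NR (67.9% of all genes), 31 for 4T1.2 against 66cl4 (68.8%), 28 for 4T1 against 67NR (68.2%) and 30 for 4T1 against 66cl4 (70.1%). With a log2 fold change above 1 in size required they were 16 (24.6%), 20 (25.2%), 15 (24.5%) and 20 (26.5%), in the same order. These comparisons share libraries and are not independent. Col6a2 and Col12a1 were lower in each of the 4. For Col6a2 the log2 fold change was -7.72 and -8.76 for 4T1.2 against 67NR and 66cl4, and -7.77 and -8.81 for 4T1. For Col12a1 it was -6.01 and -5.60, and -6.80 and -6.39.

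The genes that fold, process, bind and take up collagens were followed with the collagens. Of 17 tested genes of helix modification and folding, 14 were called in the pooled comparison, 9 higher and 5 lower in 4T1 and 4T1.2 (82.4%, against 76.8% of all genes), and the summed level of the list was 1470 to 1760 RPKM there against 837 to 965 RPKM in the other lines. Serpinh1, the chaperone HSP47 that binds the procollagen triple helix, was at 333 and 366 RPKM in 4T1.2, 294 and 335 in 4T1, and 114 and 105 in 67NR. In 66cl4 it was all but absent, with 25 and 9 counts or 0.226 and 0.0821 RPKM, and was lower than in 67NR by 9.46 on the log2 scale (SE 0.25, adjusted p 2.22e-08). The collagen genes were thus at their highest summed level in the line with the least Serpinh1. P4ha3, a prolyl 4-hydroxylase chain, was higher in 4T1 and 4T1.2 by 4.77 on the log2 scale (SE 0.26, adjusted p 7.59e-08). P3h4, a scaffold of lysyl hydroxylation, had 6 and 9 counts in 4T1.2 and 31 and 28 in 4T1. It had 6 in each library of 67NR and 0 in those of 66cl4. Its pooled call (adjusted p 0.000392) came with overlapping libraries, at 0.0565 and 0.0849 RPKM in 4T1.2 against 0.0875 and 0.052 in 67NR. P4ha2 differed by 0.55 (SE 0.12, adjusted p 0.00177) and the lysyl hydroxylase Plod2 by -0.20 (SE 0.08, adjusted p 0.0347).

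Of 9 tested genes of secretion and propeptide removal, 6 were called in the pooled comparison (66.7%, against 76.8% of all genes), 5 higher and 1 lower. Bmp1, the proteinase that removes the C-terminal propeptide of fibrillar procollagens, was at 168 and 148 RPKM in 4T1.2 and 132 and 121 in 4T1, against 20.2 and 20.8 in 67NR and 17.8 and 18.2 in 66cl4, a log2 fold change of 2.88 (SE 0.07, adjusted p 2.22e-10). Its enhancers moved apart. Pcolce2 was higher by 2.53 (SE 0.07, adjusted p 6.5e-10), and Pcolce was the one gene called lower, at -0.97 (SE 0.06, adjusted p 3.4e-07) and 402 to 583 RPKM in 66cl4 and 67NR. Of the N-propeptide proteinases, Adamts14 was higher by 1.55 (SE 0.12, adjusted p 1.11e-06) whereas Adamts2 and Adamts3 had no more than 1 count in any library.

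Of the 7 tested collagen receptors and uptake genes, 2 were called higher and 3 lower (71.4% called, against 76.8% of all genes). Mrc2, the endocytic receptor that takes up collagen for degradation, was at 0.792 and 0.969 RPKM in 4T1.2 and 0.857 and 0.947 in 4T1, against 35.2 and 36.8 in 67NR and 75.4 and 62.6 in 66cl4, a log2 fold change of -5.81 (SE 0.10, adjusted p 3.38e-11). Itga2, the collagen-binding integrin chain of epithelia, had 227 to 710 counts in 4T1.2 and 4T1 and 0 to 4 in the other lines (log2 fold change 7.23, SE 0.35, adjusted p 3.52e-08), and Itga10 was lower by 1.35 (SE 0.14, adjusted p 1.09e-05). Itga1 was higher by 0.84 (SE 0.11, adjusted p 7.59e-05). Their common partner Itgb1 was at 188 to 250 RPKM in all libraries (pooled -0.14, SE 0.07, adjusted p 0.084), and Itga11 had at most 7 counts and was not tested. Of the discoidin domain receptors, Ddr1 was lower by 0.56 (SE 0.07, adjusted p 4.8e-05) and Ddr2 had a difference of 0.15 (SE 0.09, adjusted p 0.128).

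The proteoglycans and glycoproteins that bind fibrils had all 10 tested genes of a list of 12 called, 2 higher and 8 lower in 4T1 and 4T1.2, where 76.8% of all genes were called and 38.6% were lower. The largest differences were in small leucine-rich proteoglycans. Bgn had 2 counts over the 4 libraries of 4T1.2 and 4T1 against 975 in the others, a ratio of 571 (95% counting interval 158 to 4730). Prelp had 7 against 3134, a ratio of 525 (254 to 1310). Fmod had no count in 4T1.2 or 4T1 and 28 to 77 per library in the others, at least 19.9-fold lower against a floor of 3 counts per library. Of 5 basement membrane partners, 1 was higher and 2 were lower (60% called, against 76.8% of all genes), and the nidogens, which bridge laminin and collagen IV, were exchanged between the pairs of lines. Nid1 was higher in 4T1 and 4T1.2 by 5.72 (SE 0.16, adjusted p 5.5e-10), and Nid2 was lower by 4.38 (SE 0.22, adjusted p 4.43e-08), on the log2 scale. Both were modest even where higher, Nid1 at 0.861 to 1.68 RPKM in 4T1.2 and 4T1 and Nid2 at 0.401 to 1.03 RPKM in 66cl4 and 67NR. The perlecan gene Hspg2 was lower by 1.17 (SE 0.17, adjusted p 0.00015).

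**Figure D5:**
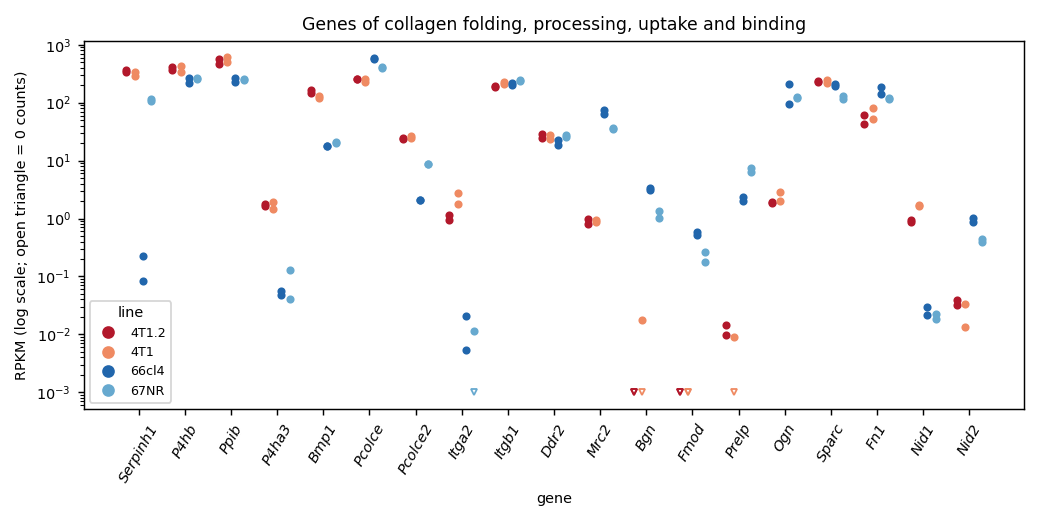
RPKM (log axis) of genes for collagen folding, processing, uptake and binding in each library, coloured by line, with open triangles for libraries with 0 counts. Serpinh1 falls to 0.226 and 0.0821 RPKM in the 66cl4 libraries, and Mrc2, Bgn, Fmod, Prelp, Ogn and Nid2 sit higher in 66cl4 and 67NR than in 4T1.2 and 4T1, opposite to Bmp1, Itga2 and Nid1.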

How the data were processed

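RNA of the 4 lines was prepared with Illumina's TruSeq RNA v2 kit, which does not keep the strand. The authors aligned reads to mouse build mm10 (GRCm38) with Rsubread and deposited the featureCounts output as raw counts per Entrez gene. The strand setting was not given in the sources used here. The 8 sample files were identical to the columns of the series table. Of 27179 gene identifiers, 25275 (93%) matched a RefSeq symbol of GRCm38.p6.

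Genes passing edgeR's filterByExpr (15269) were kept unless ribosomal, predicted or unannotated, which left 13927 genes and removed 5.27% to 7.87% of the counts of a library. Counts were scaled by TMM and fitted with edgeR 4.0.16 (quasi-likelihood, prior count 0.125) in R 4.3.3 on all 8 libraries with line as the factor, as in the study's own methods, giving the pooled comparison, 6 pairs of lines and a joint test. The estimated biological coefficient of variation was 9.74%. P-values were adjusted by Benjamini-Hochberg over all genes tested. RPKM used the deposited gene lengths. Where one side had at most 3 counts in each library, a ratio of summed counts with its exact 95% interval is given, or a bound at 3 counts per library.

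All 44 collagens are named; each has its values in every library where it is among the 3 highest of its class or tested and over 8-fold between lines. Of the partner lists, the 3 largest called changes and genes chosen by role are named. The collagens, lists and partner genes were chosen with earlier results of these data known. Replicates of a line differed by more than sampling noise (chi-square per gene 9.62 to 70.5). Other normalizations, filters, DESeq2 1.42.0, limma 3.58.1, a threshold of 1 on the log2 scale, a replicate block and leaving out each library were tried. Promoter sequence, starts and motif shares came from RefSeq tables (GRCm38.p6). Exon overlaps, shared 75-base stretches and the cut of promoter stretches before exons used the GENCODE annotation of GRCm38.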

Additional observations from a re-analysis of the deposited data

How the results depend on the processing

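Pooled directions held for every called collagen in all alternatives tried. The uncalled Col4a5, which lies at 0, had pooled log2 values of 0.008 (DESeq2 size factors), 0.006 (no filter on low counts), 0.02 (no removal by annotation), 0.008 (DESeq2 test), 0.002 (limma-voom), 0.001 (replicate block) and -0.04 to 0.04 when a library was left out, and the uncalled Col8a2 ran from -1.39 to 1.13, without replicates 1 and 2 of 67NR. Requiring a log2 fold change above 1 in size left 18 collagens called in the pooled comparison, 1 for 4T1.2 against 4T1, 5 for 66cl4 against 67NR, 16 for 4T1.2 against 67NR, 20 for 4T1.2 against 66cl4, 15 for 4T1 against 67NR and 20 for 4T1 against 66cl4, fewer by construction. When a library was left out, its line kept 1 library, assumed to vary like the others. The count was then 27 to 29 in the pooled comparison, 2 to 8 for 4T1.2 against 4T1, 11 to 21 for 66cl4 against 67NR, 27 to 31 for 4T1.2 against 67NR, 26 to 31 for 4T1.2 against 66cl4, 23 to 27 for 4T1 against 67NR, 26 to 30 for 4T1 against 66cl4 and 31 to 34 in the joint test. The DESeq2 test called 27 in the pooled comparison, and Col8a2 with them (adjusted p 0.0459), but not Col4a3, Col4a4, Col11a2 or Col20a1.

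The main fit did not take same-numbered libraries as pairs. Deviations of same-numbered libraries of 2 lines had correlations across genes of -0.123 (4T1.2 with 66cl4) to 0.27 (4T1.2 with 4T1). Whether libraries of the same number were prepared together is not stated. With the replicate number as a block the count was 29 in the pooled comparison (Col11a2 was lost), 8 for 4T1.2 against 4T1, 20 for 66cl4 against 67NR and 26 for 4T1 against 67NR. Depth limits the 9 untested collagens and the 6 with at most 3 counts per library on one side, whose fitted values moved with single libraries (Col14a1 from a log2 fold change of 7.7 to 9.64 without replicate 1 of 67NR). Each line is 1 line with 2 libraries.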
